A study of Mus musculus with 6 samples.

Results

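The genes described here are 47 genes of the extracellular matrix and of fibroblasts, taken by symbol from a table of 55335 mouse genes. They are collagens, laminins, proteoglycans, matricellular proteins (secreted proteins that act on cells without building fibres), matrix enzymes, matrix receptors and a pair of contractile genes. All 47 were found in the table, each in a single row. Their expression was measured by RNA sequencing in 6 libraries of primary GABAergic interneurons (inhibitory nerve cells whose transmitter is GABA) cultured from brains of wild-type C57BL/6 embryos at embryonic day 14.5. All 6 libraries come from cells exposed to adeno-associated virus (AAV) for 12 hours, so no uninfected culture was measured. In 3 libraries the virus is labelled AAV-scramble (a control hairpin) and in 3 AAV-shbrpf1 (a hairpin against Brpf1, a scaffold of histone acetyltransferase complexes). The libraries of each virus are numbered 1 to 3 in their titles. The meaning of a number is not stated in the labels, nor is it stated that libraries of a group came from separate animals or cultures. The p-values therefore reflect the spread among these 6 libraries alone, and that spread may be technical. One label calls the cells neural progenitors.

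The extracellular matrix is the protein and sugar mesh around cells. Fibroblasts of the meninges and of vessel walls make fibrillar collagens and small leucine-rich proteoglycans, whereas basement membranes, which sheathe vessels and the brain surface, are sheets of laminin, collagen IV and nidogen. Neural tissue has little collagen. Its matrix is built of hyaluronan, the lecticans (neurocan, versican, brevican and aggrecan), tenascin-R and link proteins, which neurons and glia secrete and which in the mature brain condense into perineuronal nets.

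Values are FPKM, the number of sequenced fragments relative to transcript length and library depth, which allows levels to be compared between genes. Depth was estimated at 13.1 to 21.1 M fragments per library. The interneuron genes Gad1, Gad2 and Slc32a1 were present in all 6 libraries, with Gad1 at 94.1 to 177 FPKM. Brpf1 itself measured 3.29 FPKM with AAV-scramble and 3.13 with AAV-shbrpf1 in the libraries numbered 1, 5.45 and 4.58 in those numbered 2, and 4.84 and 3.78 in those numbered 3. This difference was not past the threshold (-0.18 ± 0.26 SE on the log2(FPKM + 1) scale, limma adjusted p = 1). The libraries differed by number. Of 12792 genes tested, 7242 (56.6%) differed between the libraries numbered 1 and those numbered 2 and 3 (limma, Benjamini-Hochberg adjusted p under 0.05). Between the numbers 2 and 3, 6037 (47.2%) differed. The first contrast sets 2 libraries against 4 and the second 2 against 2, so these shares are of unlike precision. The members are therefore described first by library number and then by virus.

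Among the 47 genes, 12 were confined to the libraries numbered 1. Confined means here at 1 FPKM or more in both libraries numbered 1, under 1 FPKM in each of the other 4, and at least 5 times higher in the lower library numbered 1 than in the highest of the others. Of the 14150 genes of the table at 1 FPKM or more in at least 1 library, 40 (0.283%) met the same rule, as did 28 (0.219%) of the 12792 genes tested, and 2 genes (0.0141%) were confined to the libraries numbered 2 and 2 (0.0141%) to those numbered 3. The 12 are Col1a1, Col1a2, Col3a1, Nid1, Spp1, Postn, Bgn, Dcn, Lum, Lox, Tagln and Acta2. They were picked by these levels, so the levels are a description without a test. In a bulk sample, fewer cells of a type and less RNA per cell cannot be told apart. The summed level of the 12 was 94.1 FPKM in AAV-scramble 1 and 61.1 FPKM in AAV-shbrpf1 1, and 1.47 to 2.57 FPKM in the other 4 libraries.

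**Figure D1:**
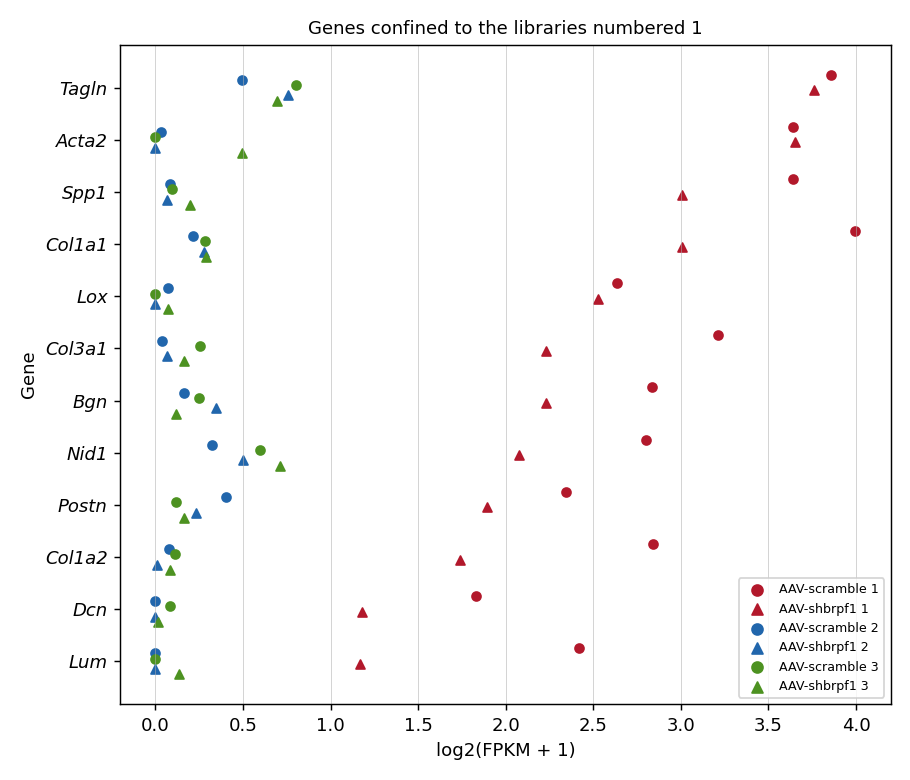
Level of the 12 genes confined to the libraries numbered 1, as log2(FPKM + 1) on the horizontal axis, with 1 point per library (circles AAV-scramble, triangles AAV-shbrpf1; colours give the library number). For each gene both red points lie right of the 4 others, and for all but Acta2 the red circle lies right of the red triangle.

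The fibrillar collagens supplied 3 of the 12. Col1a1 and Col1a2 encode the chains of collagen I, the main collagen of connective tissue, and Col3a1 encodes collagen III, which accompanies it in soft tissue and vessel walls. Col1a1 measured 15.0 FPKM in AAV-scramble 1 and 7.02 FPKM in AAV-shbrpf1 1, against 0.161 and 0.215 FPKM in AAV-scramble 2 and 3 and 0.212 and 0.223 FPKM in AAV-shbrpf1 2 and 3. Col1a2 measured 6.17 and 2.33 FPKM in the libraries numbered 1 and 0.00612 to 0.0791 FPKM in the others. Col3a1 measured 8.27 and 3.69 FPKM against 0.0263 to 0.193 FPKM. In each of these collagens the lower library numbered 1 was at least 19.2 times the highest of the other libraries, and AAV-scramble 1 was the higher of its pair. The table also lists AC125167.1, a feature of chromosome 1 from 45311673 to 45311813 that lies inside Col3a1 on the same strand. It was confined as well (19.4 and 11.2 FPKM, at most 0.395 FPKM elsewhere), and its reads can be shared with Col3a1.

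The other 3 fibrillar collagen genes were present in every library and higher in those numbered 1. Col5a2 and Col5a1, chains of collagen V, which starts the assembly of collagen I fibrils, differed by 1.74 ± 0.14 and 0.77 ± 0.14 on the log2(FPKM + 1) scale (SE; limma adjusted p = 0.002 and 0.00717). Col5a2 reached 6.08 FPKM in AAV-scramble 1 and 4.69 FPKM in AAV-shbrpf1 1 and lay between 0.681 and 1.19 FPKM in the others. Col11a1, a chain of collagen XI, differed by 1.14 ± 0.15 (adjusted p = 0.00284), with 3.72 and 2.91 FPKM against 0.544 to 1.43 FPKM. Both libraries numbered 1 lay above each of the others for all 6 fibrillar collagens, as they did for 33.7% of all genes tested. For the 3 confined collagens this order is part of the definition.

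Small leucine-rich proteoglycans bind collagen fibrils and set their spacing, and all 3 listed were confined. Bgn (biglycan) measured 6.12 and 3.69 FPKM in AAV-scramble 1 and AAV-shbrpf1 1 and 0.0853 to 0.272 FPKM in the other 4 libraries. Lum (lumican) measured 4.34 and 1.25 FPKM, was listed at 0 in 3 of the other libraries and stood at 0.0984 FPKM in AAV-shbrpf1 3. Dcn (decorin) measured 2.56 and 1.26 FPKM, was listed at 0 in both libraries numbered 2 and stood at 0.0575 and 0.0103 FPKM in those numbered 3. Dcn did not reach the mean level required for the tests.

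The contractile genes Tagln (transgelin) and Acta2 (smooth muscle actin) mark smooth muscle, pericytes and activated fibroblasts, and were the most abundant of the 12 when ranked by the lower library numbered 1. Tagln measured 13.5 and 12.5 FPKM in AAV-scramble 1 and AAV-shbrpf1 1 and 0.409 to 0.746 FPKM elsewhere. Pcsk7 overlaps it on the opposite strand and stood at 2.58 to 3.76 FPKM in all 6 libraries. Acta2 measured 11.5 and 11.6 FPKM in the libraries numbered 1, was listed at 0 in AAV-scramble 3 and AAV-shbrpf1 2, and stood at 0.0216 FPKM in AAV-scramble 2 and 0.407 FPKM in AAV-shbrpf1 3. Lox, the oxidase that cross-links collagen and elastin, measured 5.22 and 4.76 FPKM against at most 0.0504 FPKM. In these 3 genes the libraries numbered 1 lay close to each other, unlike the collagens.

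Promoters of 3 confined genes, and of Ncan, which was lower in the libraries numbered 1, are shown so that the sequences of genes with opposite patterns can be compared. Each is the 250 bases upstream of the annotated start, 5′ to 3′ on the gene's strand, from RefSeq (GRCm38.p6), and these 4 were chosen after the values were seen. They lie at chr19:34255374-34255623 on the minus strand (Acta2), chr6:4505368-4505617 on the plus strand (Col1a2), chr1:45311288-45311537 on the plus strand (Col3a1) and chr8:70120845-70121094 on the minus strand (Ncan). Capitals mark matches to 3 motifs searched on both strands: the CArG box (CC, 6 bases of which at most 1 is G or C, then GG), which is bound by serum response factor and is its own reverse complement, TATAAA, and CCAAT.
Acta2: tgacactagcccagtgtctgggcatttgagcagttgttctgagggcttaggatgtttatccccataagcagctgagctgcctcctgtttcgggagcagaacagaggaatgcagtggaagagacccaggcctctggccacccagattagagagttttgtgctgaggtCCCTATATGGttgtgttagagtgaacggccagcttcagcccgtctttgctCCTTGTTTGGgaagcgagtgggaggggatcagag
Col1a2: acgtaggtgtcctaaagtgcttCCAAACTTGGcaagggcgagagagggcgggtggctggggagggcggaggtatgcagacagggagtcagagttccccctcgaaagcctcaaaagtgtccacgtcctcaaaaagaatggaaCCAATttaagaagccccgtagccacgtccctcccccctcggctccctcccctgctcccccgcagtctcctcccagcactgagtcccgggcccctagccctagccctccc
Col3a1: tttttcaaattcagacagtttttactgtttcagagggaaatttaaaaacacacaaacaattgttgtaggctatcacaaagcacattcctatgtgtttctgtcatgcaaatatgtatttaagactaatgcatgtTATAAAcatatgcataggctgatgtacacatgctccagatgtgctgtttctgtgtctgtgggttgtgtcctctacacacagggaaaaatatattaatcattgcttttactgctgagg
Ncan: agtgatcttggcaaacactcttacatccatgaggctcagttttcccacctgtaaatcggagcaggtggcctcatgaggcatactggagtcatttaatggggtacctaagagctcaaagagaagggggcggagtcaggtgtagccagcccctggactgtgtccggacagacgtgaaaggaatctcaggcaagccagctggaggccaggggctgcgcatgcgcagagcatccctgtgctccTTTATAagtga
In the Acta2 window 2 CArG boxes stood 84 to 75 and 34 to 25 bases upstream of the start. The Col1a2 window held a CArG box 228 to 219 bases upstream and a CCAAT 109 to 105 bases upstream, Col3a1 a TATAAA 117 to 112 bases upstream, and Ncan a TATAAA on the other strand 11 to 6 bases upstream. No matches overlapped in these 4 windows. Among all 32851 windows of this length, 8.59% held such a CArG box, 12.4% a TATAAA and 33.85% a CCAAT. Of the 47 genes, 32 were in the promoter table with 37 windows, of which 5 held a CArG box (Acta2, Col1a2, Fbln2, Itgb1 and Timp3), 5 a TATAAA and 15 a CCAAT. A match is a run of letters and not evidence of binding.

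All 5 matricellular genes were higher in both libraries numbered 1 than in each of the others, beside 33.7% of all genes tested. Of the 5, 2 were confined, and for these the order is part of the definition. Spp1 (osteopontin, a secreted phosphoprotein of bone, immune cells and injured tissue) measured 11.5 and 7.04 FPKM in AAV-scramble 1 and AAV-shbrpf1 1 and 0.0463 to 0.145 FPKM elsewhere. Postn (periostin, made by fibroblasts) measured 4.07 and 2.71 FPKM against 0.0857 to 0.324 FPKM. Sparc, a collagen-binding protein that brain glia and vessels also make, was abundant in all libraries at 55.4 and 49.7 FPKM in those numbered 1, compared with 27.1 to 41.2 FPKM in the others. It differed by 0.69 ± 0.09 on the log2(FPKM + 1) scale (SE, limma adjusted p = 0.00276). Thbs1 (thrombospondin 1), which activates latent TGF-beta, measured 10.2 and 9.64 FPKM against 2.28 to 3.25 FPKM (1.51 ± 0.11, adjusted p = 0.002). Thbs2 was too low to be tested, at 0.853 and 0.553 FPKM against at most 0.293 FPKM.

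Basement membrane genes did not share a pattern. Of 10 members 8 were tested, of which 4 (the confined Nid1 among them) were higher in the libraries numbered 1, 1 was lower and 3 were not past the threshold, beside 34.7% higher and 21.9% lower among all genes tested. Nid1, a nidogen that links laminin to collagen IV, was the single confined member, at 5.96 and 3.21 FPKM against 0.25 to 0.636 FPKM. It lay just inside the limit of 5 times, with a ratio of 5.05 between the lower library numbered 1 and the highest of the others. Col4a1, a chain of collagen IV, was higher by 0.89 ± 0.13 on the log2(FPKM + 1) scale (SE, limma adjusted p = 0.00402), at 10.9 and 7.51 FPKM against 4.0 to 4.79 FPKM. Its partner Col4a2, which starts beside it on the opposite strand, measured 8.38 and 7.40 FPKM in the libraries numbered 1 and 5.15 to 8.50 FPKM in the others, so that the libraries overlapped (0.24 ± 0.10, adjusted p = 0.0848). The laminin chain Lamb1 and the nidogen Nid2 differed by 0.58 ± 0.13 and 0.59 ± 0.14 (adjusted p = 0.0118 and 0.0157), and reads of Nid2 can be mixed with those of 2700060E02Rik on the opposite strand. Lamc1, the chain shared by most laminins and the most abundant of the 10 on average, lay between 7.14 and 9.52 FPKM in all libraries. Lamb2, a laminin chain of synapses and vessels, went the other way, at 4.70 and 5.07 FPKM in the libraries numbered 1, compared with 8.83 to 10.4 FPKM in the others (-0.86 ± 0.11, adjusted p = 0.00269). Lama5 overlapped between the libraries, and the low Lama1 and Lama4 were not tested, with 1.41 and 1.13 FPKM and 0.862 and 0.342 FPKM in the libraries numbered 1.

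Among fibronectin, the fibulins and fibrillin, 2 of 4 were higher and 1 lower in the libraries numbered 1, beside the same 34.7% and 21.9% of all genes. Fn1 (fibronectin, the main adhesive glycoprotein of connective tissue) measured 9.44 and 5.43 FPKM against 0.990 to 1.80 FPKM (1.80 ± 0.19 SE, limma adjusted p = 0.00209). Fbn1 (fibrillin 1, the backbone of microfibrils) measured 2.85 and 2.53 FPKM against 0.763 to 1.15 FPKM (0.90 ± 0.13, adjusted p = 0.00366). Fbln1 (fibulin 1) was lower, at 2.36 and 2.5 FPKM against 3.99 to 5.66 FPKM (-0.76 ± 0.11, adjusted p = 0.00397), and Fbln2 overlapped at 1.26 to 1.75 FPKM over all libraries. Collagen VI, a beaded filament near cell surfaces, was represented by Col6a1, higher at 5.13 and 4.55 FPKM against 1.76 to 3.08 FPKM (0.78 ± 0.12, adjusted p = 0.00384). Its partner Col6a2 was too low to be tested and missed the limit of 1 FPKM for confinement in AAV-shbrpf1 1, at 1.46 and 0.711 FPKM against at most 0.0959 FPKM.

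Matrix enzymes and inhibitors, beside Lox, included a confined-like pattern that missed the limits. Mmp2 (gelatinase A) measured 3.11 and 1.37 FPKM against 0.189 to 0.494 FPKM, a ratio of 2.77 between the lower library numbered 1 and the highest of the others. It reached the level required for testing only through the libraries numbered 1, so no test is given. Timp1, an inhibitor of matrix metalloproteinases, measured 0.941 and 1.07 FPKM, was listed at 0 in 3 other libraries and stood at 0.0905 FPKM in AAV-scramble 2. It lies inside the neuronal gene Syn1 on the opposite strand, which was 63.2 and 73.7 FPKM in the libraries numbered 1 and 129.5 to 350.4 FPKM in the others. Timp2, the most abundant of the group, was lower at 98.1 and 94.7 FPKM against 129 to 162 FPKM (-0.58 ± 0.08, adjusted p = 0.00374). Timp3 overlapped.

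Among the matrix receptors, Itgb1 (the integrin beta 1 chain, shared by receptors for collagen, laminin and fibronectin) was higher in the libraries numbered 1 by 0.83 ± 0.12 on the log2(FPKM + 1) scale (SE, limma adjusted p = 0.0039). It measured 38.9 and 35.1 FPKM there, 14.3 and 11.3 FPKM in the libraries numbered 2 and 30.2 and 34.6 FPKM in those numbered 3, so that the gap to the libraries numbered 3 was narrow. Dag1 (dystroglycan, a laminin receptor) was lower, at 28.7 and 31.8 FPKM against 35.3 to 53.8 FPKM (-0.48 ± 0.14, adjusted p = 0.0323). Itga6, a laminin-binding integrin chain, overlapped at 1.93 to 4.38 FPKM.

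The neural proteoglycans and their link proteins split in both directions. Ncan (neurocan) and Bcan (brevican) were lower in the libraries numbered 1. Ncan measured 63.1 and 80.9 FPKM in AAV-scramble 1 and AAV-shbrpf1 1 and 201 to 224 FPKM in the others (-1.57 ± 0.13 SE on the log2(FPKM + 1) scale, limma adjusted p = 0.002). Bcan measured 32.4 and 42.1 FPKM against 101 to 129 FPKM (-1.61 ± 0.10, adjusted p = 0.002). Hapln1, the link protein that fixes lecticans to hyaluronan, and Vcan (versican, a lectican of embryonic tissue and progenitors) were higher. Hapln1 measured 56.3 and 42.8 FPKM in the libraries numbered 1 against 5.92 to 17.6 FPKM (2.03 ± 0.19, adjusted p = 0.002), and Vcan 10.9 and 7.60 FPKM against 1.09 to 6.78 FPKM (1.23 ± 0.19, adjusted p = 0.00411). The summed level of the 7 genes was 183 and 191 FPKM in the libraries numbered 1 and 339 to 404 FPKM in the others.

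Acan (aggrecan, the lectican of perineuronal nets) followed the number in another way. It measured 6.73 and 9.63 FPKM in the libraries numbered 2, 2.17 and 2.60 FPKM in those numbered 1, and 0.232 and 0.268 FPKM in those numbered 3. The difference between the numbers 2 and 3 was 2.86 ± 0.16 on the log2(FPKM + 1) scale (SE, limma adjusted p = 0.00485). Tnr (tenascin-R, which cross-links lecticans) was 24.7 and 30.9 FPKM in the libraries numbered 3 and 12.9 to 16.8 FPKM in the other 4 (number 2 minus 3, -0.90 ± 0.17, adjusted p = 0.0112). Hapln4, a link protein of nets around mature neurons, stayed under 1 FPKM in every library.

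**Figure D2:**
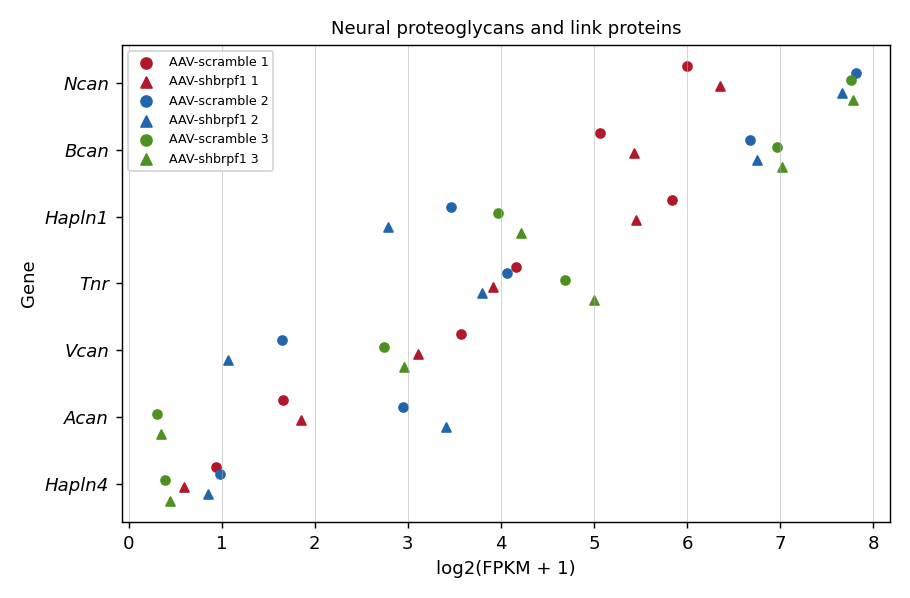
Level of the 7 neural proteoglycans and link proteins, as log2(FPKM + 1) on the horizontal axis, with 1 point per library (circles AAV-scramble, triangles AAV-shbrpf1; colours give the library number). The libraries numbered 1 are lowest for Ncan and Bcan and highest for Hapln1 and Vcan, they are interleaved with those numbered 2 for Tnr and Hapln4, and for Acan the order runs from number 3 over number 1 to number 2.

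Counted over the roles, 26 of the 40 members tested were higher in the libraries numbered 1 than in those numbered 2 and 3 and 6 were lower, beside 34.7% and 21.9% of all genes tested. Of the 26, 11 are confined genes, which were picked by this same contrast. The median difference of the 40 was 0.86 on the log2(FPKM + 1) scale, and that of all genes 0.11. The median of the 40 includes genes picked by this same contrast, so nothing is read from the gap. Of the 40, 12 (the 11 confined and Mmp2) passed the filter on low values only through the libraries numbered 1, with a mean under 1 FPKM at both other numbers. A gene kept in this way is already high there, and 82.1% of all 330 such genes were called higher, so nothing is read from these 12. Among the other 28, 14 were higher, 6 lower and 8 not past the threshold, and among all genes of that kind 33.5% were higher and 22.5% lower. Both libraries numbered 1 lay above each of the other 4 for 32 of the 47 genes and below them for 6, where all genes tested gave 33.7% and 23.5%. The 12 confined genes are among the 32 by definition. The 47 also include 7 genes too low to be tested, so these shares come from an unlike set of genes. With each library scaled to the same median, the calls among all genes were 3314 higher and 3962 lower in place of 4441 and 2801, and the median difference of all genes moved from 0.11 to -0.06. The 32 members called kept their direction and their call under that scaling. Without AAV-scramble 1 the number of members called was 16 and of genes 962, and without AAV-shbrpf1 1 the number of genes was 2513.

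**Figure D3:**
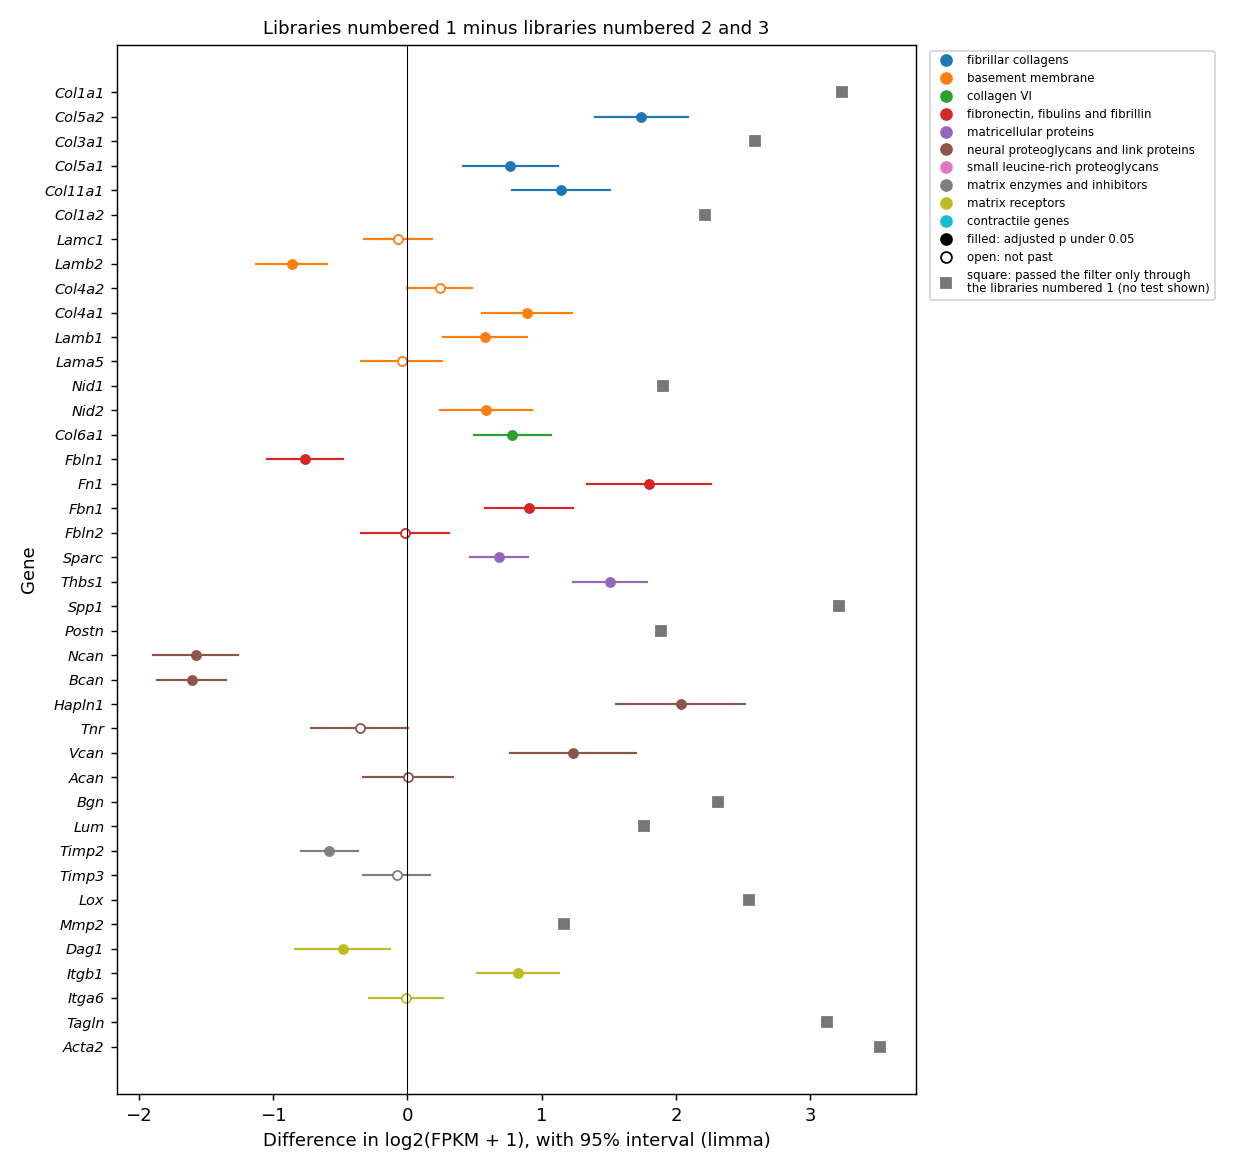
Difference in log2(FPKM + 1) between the libraries numbered 1 and those numbered 2 and 3 for the 40 members tested, for 28 of them with 95% intervals from limma, coloured by role and filled where the adjusted p is under 0.05. Grey squares without an interval are the 12 that passed the filter only through the libraries numbered 1. Among the 28, 14 filled points lie right of 0, led by Hapln1, and 6 lie left of it, led by Bcan and Ncan.

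Between the numbers 2 and 3, 11 of the 40 members differed, 4 higher in the libraries numbered 2 (12.9% of all genes) and 7 lower (34.3%). The genes higher were Acan, Col4a2, Lama5 and Col6a1. Those lower were Vcan, Itgb1, Timp3, Hapln1, Tnr, Itga6 and Sparc. Timp3, an inhibitor that stays bound to the matrix, measured 6.20 and 6.03 FPKM in the libraries numbered 2 and 16.8 and 15.6 FPKM in those numbered 3 (-1.27 ± 0.11 SE on the log2(FPKM + 1) scale, limma adjusted p = 0.00485). It overlaps Syn3 on the opposite strand. The count of members was 7 without AAV-shbrpf1 2, 6 without AAV-shbrpf1 3 and 6 with no filter on low values. With libraries scaled to the same median the calls among all genes were 2948 higher and 2343 lower, in place of 1651 and 4386, and 12 members were called, without Sparc (-0.084).

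Genes of the same pathways beyond the 47 were counted from lists chosen with earlier results of these data known, and 5 listed genes were confined. Among all genes at 1 FPKM or more in at least 1 library, 0.283% were confined. Of 21 other collagen genes 7 were tested. Of these, 2 (Col4a5 and Col18a1) were higher and 1 lower in the libraries numbered 1, beside 34.7% and 21.9% of all genes tested. Col18a1 passed the filter on low values only through the libraries numbered 1, so nothing is read from its call. Col18a1 (collagen XVIII of basement membranes) and the low Col8a1 were confined, with Col18a1 at 3.60 and 1.79 FPKM against at most 0.336 FPKM, while the most abundant, Col5a3, was lower at 4.77 and 4.28 FPKM against 6.26 to 6.97 FPKM (limma adjusted p = 0.0099). Of 27 other matrix glycoproteins 15 were tested, 5 higher and 5 lower, and Fbln5 was confined at 2.91 and 2.33 FPKM against at most 0.212 FPKM. The 5 called higher (Fbln5, Fbn2, Emilin1, Mfap4 and Matn2) passed the filter only through the libraries numbered 1, so nothing is read from these calls. Among 12 other proteoglycan and hyaluronan genes, the collagen-binding Ogn and Fmod were confined at low levels. Of the 5 tested 0 were higher and 2 lower. The shares of 34.7% and 21.9% over all genes stand beside each of these lists.

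Of 16 genes that process collagen inside or outside the cell, 12 were tested, of which 1 was higher and 4 were lower in the libraries numbered 1, beside 34.7% and 21.9% of all genes tested. The gene higher was Plod2, a lysyl hydroxylase of collagen, at 4.23 and 3.66 FPKM against 0.398 to 1.53 FPKM (1.34 ± 0.14 SE, limma adjusted p = 0.00215). P4hb, a subunit of prolyl 4-hydroxylase and a general disulfide isomerase, measured 47.4 and 51.9 FPKM in the libraries numbered 1 and 65.3 to 74.5 FPKM elsewhere (-0.48 ± 0.09, adjusted p = 0.00645). Plod1, the collagen chaperone Serpinh1 and the secreted procollagen protease Bmp1 were also lower, and Ppib overlapped. Pcolce and Loxl2, which act outside the cell and were too low to be tested, lay above the other libraries in both libraries numbered 1 (2.03 and 0.780 FPKM against at most 0.251, and 1.83 and 1.27 FPKM against at most 0.348). These genes other than P4hb and Ppib are named after their values were seen. Of 9 genes tested from the list of matrix proteases 3 were higher and 6 lower, and 1 of these 6 is the inhibitor Timp4. Of 12 other matrix receptors tested 4 were higher and 4 lower, and of 7 genes of TGF-beta signalling 2 and 1. The shares over all genes were again 34.7% and 21.9%. Of 6 other contractile genes tested 4 were higher and 2 lower. Myl9 and Cnn2 of these 4, and Ddr2 of the 4 receptors higher, passed the filter only through the libraries numbered 1. Nothing is read from these calls, which leaves Tpm1 and Cald1 among the contractile genes. Tpm1 measured 18.8 and 17.6 FPKM against 8.58 to 12.9 FPKM (limma adjusted p = 0.00784).

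Markers of cell types that could contribute these transcripts were measured beside them. Of 18 fibroblast markers 6 were tested, 2 of them (Pdpn and Cdh11) higher in the libraries numbered 1 and 0 lower, beside 34.7% and 21.9% of all genes tested. Both libraries numbered 1 lay above each of the others for 9 of the 18 and below for 0, beside 33.7% and 23.5% of genes tested. Of these 9 only Pdpn and Cdh11 were abundant enough to be tested, so the shares come from an unlike set of genes. The summed level of the 18 was 75.0 and 61.7 FPKM there and 38.9 to 66.6 FPKM in the others. The most abundant of them, Lgals1, Pdpn and Pdgfra, were present in all 6 libraries. Twist1, a transcription factor of mesenchyme, measured 0.977 and 0.687 FPKM in the libraries numbered 1 and was listed at 0 in the other 4. Tbx18, chosen with Twist1, Twist2, Dpt, Cdh11, Rgs5, Anpep, Cdh5 and Emcn after their values were seen, stood at 0.274 and 0.143 FPKM against 0, Cyp1b1 was confined at 1.63 and 1.14 FPKM, and Dpt and Twist2 were at most 0.0447 FPKM in any library. Mural cell markers summed to 7.23 and 6.64 FPKM in the libraries numbered 1 and 12.4 to 17.0 FPKM in the others, most of it Notch3 and Cspg4. Of 3 tested 0 were higher and these 2 were lower, beside 34.7% and 21.9% of all genes tested. Notch3 measured 2.69 and 3.89 FPKM against 7.67 to 10.6 FPKM, and Cspg4 1.38 and 1.15 FPKM against 2.72 to 5.06 FPKM. The lower sum therefore reflects these 2 genes and not the list as a whole. The pericyte markers Kcnj8 and Higd1b were listed at 0 in every library, and Myh11 of smooth muscle was at most 0.0442 FPKM. Rgs5 and Anpep went against the sum, with higher values in the libraries numbered 1: Rgs5 had 0.60 and 0.217 FPKM against at most 0.158 FPKM, and Anpep had 0.50 and 0.248 FPKM against at most 0.0229 FPKM. Of the 10 mural markers, these 2 lay above the other libraries in both libraries numbered 1 and 2 lay below, beside 33.7% and 23.5% of all genes tested.

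Endothelial markers summed to 4.51 and 3.83 FPKM in the libraries numbered 1 and 6.12 to 7.90 FPKM in the others, most of it Slco1c1, and Pecam1 was at most 0.148 FPKM in any library. Cdh5, Kdr and Emcn, 3 of the 11, lay above the other libraries in both libraries numbered 1, and 1 lay below. Among all genes tested these shares were 33.7% and 23.5%, so nothing is read from the count. Cdh5 measured 0.10 and 0.0755 FPKM there and was listed at 0 in the other 4, and Kdr measured 0.452 and 0.412 FPKM against at most 0.245 FPKM. Microglia markers summed to 0.825 and 0.322 FPKM in the libraries numbered 1 and 0.0264 to 0.191 FPKM in the others, with Cx3cr1 and Itgam listed at 0 in every library. Erythroid markers summed to 1.81 and 1.52 FPKM against 0.327 to 0.723 FPKM, with Hba-a1 and Hba-a2 listed at 0 in every library. Both sums were thus higher in the libraries numbered 1, at low levels. Choroid plexus markers summed to 1.90 and 1.02 FPKM in the libraries numbered 1 and reached 11.0 FPKM in AAV-shbrpf1 3, where Ttr stood at 9.53 FPKM. Of the 8 interneuron markers 2 were higher and 4 lower in the libraries numbered 1, of the 8 neuron markers 4 and 3, of the 8 radial glia and progenitor markers 1 and 2, of the 7 astrocyte markers 2 and 2, and of the 7 oligodendrocyte lineage markers 1 and 5, to be read against 34.7% and 21.9% of all genes. The part of any of these cell types in the levels of the members was not tested.

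Within the libraries numbered 1, most confined genes were lower with AAV-shbrpf1. The ratio of AAV-shbrpf1 1 to AAV-scramble 1 was below 1 for 11 of the 12 and its median was 0.571. It was below 1 for 27 of the 35 members that were not confined (median 0.866) and for 7168 of 12779 genes tested with a value in AAV-scramble 1 (median 0.981), so a lower level in AAV-shbrpf1 1 was not limited to the confined genes. Lum had the smallest ratio, 0.288 (95% interval 0.210 to 0.393), from an estimated 58.9 fragments against 151. For Col1a2, Col3a1 and Col1a1 the ratio was 0.378, 0.447 and 0.469, and for Dcn, Nid1, Bgn, Spp1 and Postn it lay between 0.494 and 0.666. For Lox, Tagln and Acta2 it was 0.912, 0.929 and 1.009, and their intervals included 1, unlike those of the other 9. The interval also lay wholly below 1 for 21 of the 35 members that were not confined. The intervals are exact (Clopper-Pearson), use fragments estimated from the longest transcript and cover counting error only. There is 1 library of each virus with this number, so these ratios compare a pair of libraries and not the viruses, and they have no replicate check. Among all 40 genes of the table that were confined, 33 were lower in AAV-shbrpf1 1, with a median ratio of 0.716.

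**Figure D4:**
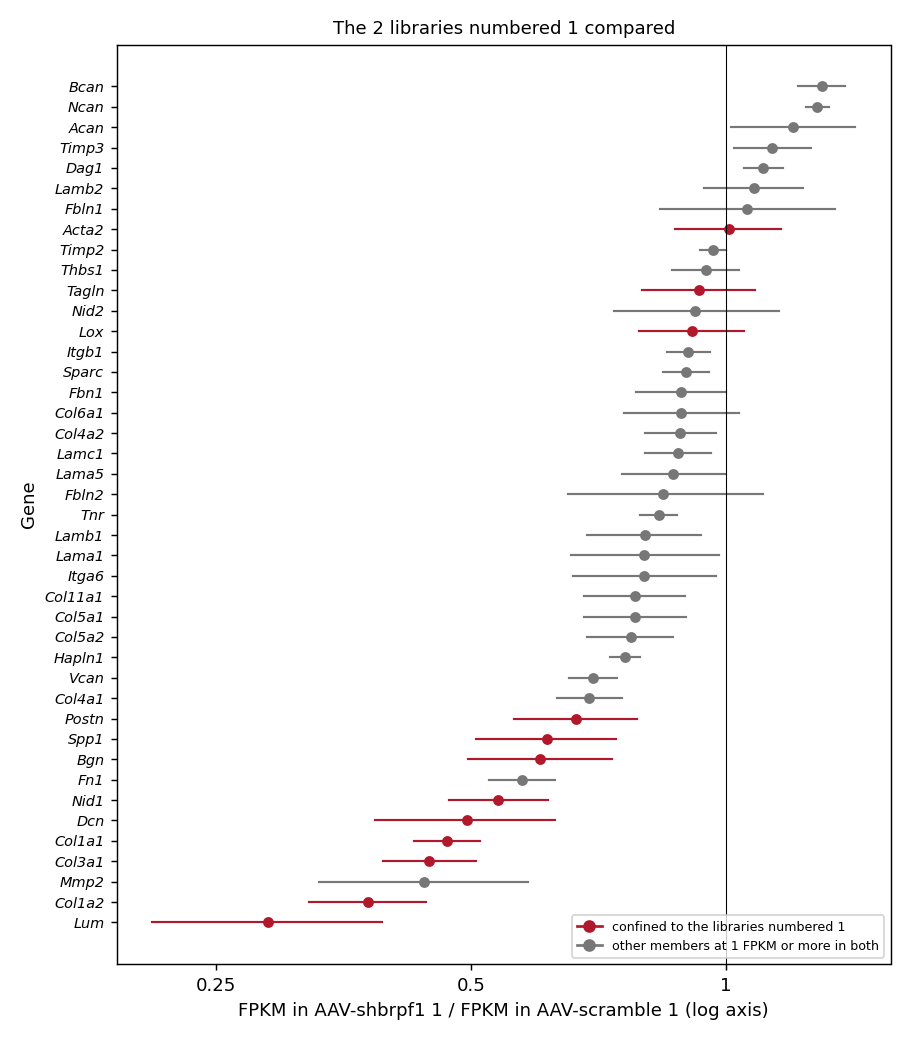
Ratio of FPKM in AAV-shbrpf1 1 to FPKM in AAV-scramble 1 (log axis) for the 42 members at 1 FPKM or more in both, with 95% intervals for counting error. Red marks the confined genes and grey the other members: Lum, Col1a2, the unconfined Mmp2, Col3a1 and Col1a1 lie furthest left, and Lox, Tagln and Acta2 lie near 1.

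Between the viruses, 0 of the 40 members tested were past the threshold, as were 0 of all 12792 genes (limma, 0%), and 0 members and 23 genes had an unadjusted p under 0.05. With the replicate number as a block these were again 0 members and 0 genes past the threshold, with 0 members and 280 genes at an unadjusted p under 0.05. No member had groups that did not overlap, beside 0.578% of genes higher and 0.492% lower with AAV-shbrpf1. The median difference of the 40 was -0.08 on the log2(FPKM + 1) scale and that of all genes -0.02, with 10 members above 0 and 30 below. The spread between numbers set wide intervals: Col1a1 stood at 5.11 ± 8.53 FPKM with AAV-scramble and 2.49 ± 3.93 FPKM with AAV-shbrpf1 (SD, n = 3), and its difference of -0.31 had a 95% interval of -3.02 to 2.41 (limma without a block, adjusted p = 1). Its SE was 1.16 in this fit and 0.23 with the block.

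The members of smallest p in each direction between the viruses were also far from the threshold. Itga6, Sparc and Lum were lower with AAV-shbrpf1 by -0.17 ± 0.30, -0.18 ± 0.34 and -0.37 ± 0.68, and Dag1, Bcan and Acan higher by 0.10 ± 0.29, 0.17 ± 0.61 and 0.23 ± 0.89 (SE, limma without a block, adjusted p = 1 for each). These SEs include the differences between numbers. With the block they were 0.10, 0.08 and 0.29 for Itga6, Sparc and Lum, and 0.13, 0.10 and 0.13 for Dag1, Bcan and Acan. Sparc was lower with AAV-shbrpf1 in each of the 3 pairs of the same number, at 49.7 against 55.4, 27.1 against 29.1 and 33.3 against 41.2 FPKM, and under the block it had an unadjusted p of 0.0692 and an adjusted p of 1. Lum was lower in the pair numbered 1, listed at 0 in both libraries of the pair numbered 2, and higher in AAV-shbrpf1 3. Acan was higher with AAV-shbrpf1 in all 3 pairs, by 2.17 to 2.60, 6.73 to 9.63 and 0.232 to 0.268 FPKM. Without AAV-scramble 1 the median difference of the members was 0.26, and without AAV-scramble 2 it was -0.37, so that its direction depended on which library was left out.

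**Figure D5:**
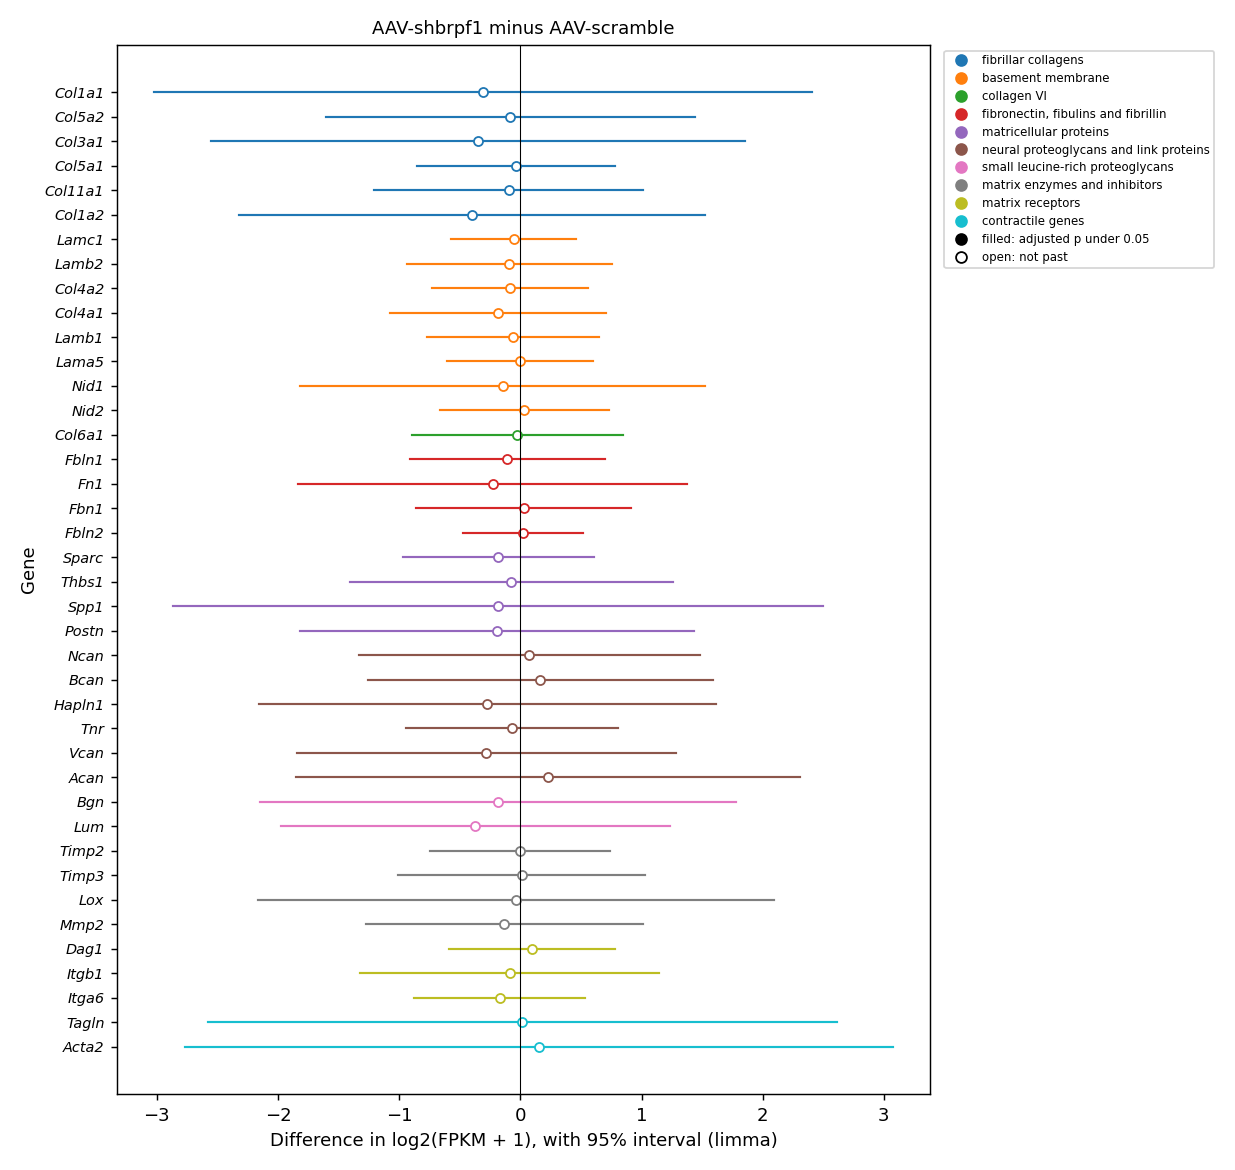
Difference in log2(FPKM + 1) between AAV-shbrpf1 and AAV-scramble for the 40 members tested, with 95% intervals from limma without a block. All points are open (not past the threshold) and all intervals include 0, and the widest belong to genes found in the libraries numbered 1, such as Acta2, Col1a1 and Spp1.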

How the data were processed

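RNA from 6 libraries (3 of each virus) was sequenced in pairs of reads. The authors deposited 1 table of 55335 genes whose header names no unit. The authors' values were taken as FPKM (fragments scaled to transcript length and library depth before deposition), because they hold fractions, differ in their totals between libraries and the submitters' processing notes name StringTie, which writes this unit. FastQC, StringTie, DESeq2 and build mm9 are named in the submitters' processing notes, without versions or roles; the aligner and the strand setting were not given in the sources used here. Of 55154 gene IDs found in GENCODE M21, 54899 had the same start and end there, so coordinates are given as GRCm38. Depth was estimated from 11673 single-exon genes longer than 400 bases, for which FPKM steps give fragments.

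A gene was tested where its mean reached 1 FPKM under either virus. The 12792 such genes, 40 members among them, were tested with limma 3.58.1 (R 4.3.3, trend, two-sided) on log2(FPKM + 1), with Benjamini-Hochberg adjusted p under 0.05 over all of them; fold changes on this scale are understated for low genes. The virus comparison had no covariate, and comparisons of library numbers had the virus as covariate. Same-numbered libraries deviated together from their group means (correlations 0.866, 0.829 and 0.574), so the numbers pair the libraries. In simulated data with 200 genes shifted by 2 on the log2(FPKM + 1) scale, 57% were recovered between the viruses without the block and 91% with it. For number 1 against the others 88% were recovered, and for number 2 against 3 93%. These last data were simulated without the real differences between numbers. The unchanged genes called were 0, 9, 11 and 6, in the same order. Intervals of ratios cover counting error only.

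The members and the lists were chosen with earlier results of these data known. Values are printed for confined members, for the most abundant member and the member of largest difference by number in each role, and for the 3 members of smallest p in each direction between the viruses; further members and genes were added after their values were seen. From the other lists the most abundant genes, confined genes and defining markers at 0 are named. Alternatives were another pseudocount, no filter, scaling to the same median, another model, other limits for confinement and leaving out libraries.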

Additional observations from a re-analysis of the deposited data

How the results depend on the processing

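The library numbers were given as a block in an alternative fit, and the pairing changed no call: 0 genes and 0 members were past the threshold between the viruses, as without it. With the replicate block and without the pair numbered 2 or 3, settings added after seeing the data, 3 and 1 genes were past it and 0 members. For number 1 against the others, leaving out a library gave 962 to 7546 genes and 16 to 33 members, lowest without AAV-scramble 1. For number 2 against 3 it gave 2328 to 5837 genes and 6 to 9 members, and no filter on low values gave 2779 genes and 6 members. The cause was not tested, beside the fewer samples and the larger number of genes that these settings hold.

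Between the viruses the direction of each of the 6 members of smallest p depended on which library was left out: differences ranged from -0.54 to 0.99 for Acan, -0.42 to 0.65 for Bcan, -0.13 to 0.24 for Dag1, -0.38 to 0.0148 for Itga6, -0.77 to 0.43 for Lum and -0.42 to 0.0377 for Sparc. With the replicate block, Dag1 was -0.0527 without the pair numbered 2 and Lum 0.0677 without the pair numbered 1. The number of confined members was 12 at a limit of 0.5 FPKM (10 shared, with Col6a2 and Timp1 in place of Nid1 and Tagln), 10 at 10 times, 13 at 2 times and 11 with scaling, and 12 to 14 with a library left out. Genes near 1 FPKM rest on few fragments: Timp1 had an estimated 11.8 and 18.1 in the libraries numbered 1.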

Other observations

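Of the 40 genes of the table confined to the libraries numbered 1, 12 were members. Among the others, Apod (apolipoprotein D) measured 12.1 FPKM in AAV-scramble 1 and 5.91 FPKM in AAV-shbrpf1 1 and at most 0.532 FPKM elsewhere. Igf2 (insulin-like growth factor 2, made by meninges and vessels in the embryo) measured 7.57 and 2.22 FPKM against at most 0.0540 FPKM. Mgp (matrix Gla protein, an inhibitor of calcification) measured 4.57 and 1.86 FPKM and was listed at 0 in the other 4 libraries. Fgl2 measured 4.82 and 2.82 FPKM against at most 0.238 FPKM. In these 4 genes, chosen after their values were seen, AAV-scramble 1 was the higher library of its pair. C3 (complement component 3) had the other order, with 1.23 FPKM in AAV-scramble 1 and 2.44 FPKM in AAV-shbrpf1 1. The confined genes were not all of matrix or connective tissue. They also include the small RNA genes Mir5117, Snord59a, Snora70 and Snora44, the pseudogene Usf2-ps1, the zinc finger genes Zfp950 and Zfp930, and features without a symbol. Mir5117 measured 11.5 and 9.24 FPKM in AAV-scramble 1 and AAV-shbrpf1 1, and Usf2-ps1 7.05 and 8.77 FPKM.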
